A study of Mus musculus with 7 samples.

Results

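Immunoglobulin heavy-chain variable segments (gene symbols beginning with Ighv) were described in 7 mouse tumours. The members were all Ighv symbols of the deposited expression table with a TPM above 0 in at least 1 of the 7 tumours, with no regard to group. This gave 80 members among the 28233 genes of the table. TPM is the relative abundance of a transcript within a tumour, corrected for its length. RefSeq names 183 Ighv genes in the mouse, and the 103 that had no row in the table are named there as V segments (43) or as pseudogenes (60). Ighv5-9-1 stood nearest to the limit, with a highest value of 0.42 TPM in 1 tumour, followed by Ighv1-19 with 0.69 TPM.

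The tumours grew under the skin of C57BL/6 mice from B16mhgp100, a derivative of B16 mouse melanoma cells. Over-expression of Cr1l, the gene of the complement inhibitor Crry, marked 4 of them (Cr1l 1 to Cr1l 4), and 3 carried the vector (Vec 5 to Vec 7). All 7 mice received anti-PD1, which blocks an inhibitory T cell receptor, as 4 doses of 200 µg starting on day 10, at 2 doses per week, and RNA was taken from whole tumours 1 day after the last dose. No untreated tumour was among the samples, and neither the promoter that drives Cr1l nor the number of cell clones behind each line is given in the sources used here. Vec 6 and Vec 7 are labelled with an added number whose meaning is not given, and Vec 5 is not. Cr1l averaged 79.1 TPM in the Cr1l tumours and 51.2 TPM in the Vec tumours.

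A heavy chain begins with a variable region that is assembled in each developing B cell by joining 1 V, 1 D and 1 J segment of the Igh locus on mouse chromosome 12. The chosen V segment is then transcribed together with a constant region, first that of IgM and, after class switching, that of IgG, IgA or IgE. An unrearranged V segment is nearly silent in mature cells, so V segment RNA in a tissue comes mainly from B cells and above all from antibody-secreting plasma cells, and a cell that divides or secretes heavily can place 1 segment ahead of the others. In RNA of a whole tumour, fewer B lineage cells and less RNA per cell cannot be told apart.

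The germline coding sequences of the segments that carried most of the RNA are shown because reads are shared out between segments by their differences. They are reference sequences from GENCODE M21 (GRCm38), 5′ to 3′, on the coding strand, and not reads of these tumours; the last 300 bases of each are printed. Capitals mark the bases at which a segment differs from its closest relative among 183 Ighv segments of that annotation. The first 4 were the leading segments of Cr1l 1 (Ighv1-11), Cr1l 2 (Ighv7-1), Cr1l 3 (Ighv14-4) and Cr1l 4 (Ighv1-78). Ighv1-55 and Ighv11-2 were above 0 in every Cr1l tumour and in Vec 5.
Ighv1-11: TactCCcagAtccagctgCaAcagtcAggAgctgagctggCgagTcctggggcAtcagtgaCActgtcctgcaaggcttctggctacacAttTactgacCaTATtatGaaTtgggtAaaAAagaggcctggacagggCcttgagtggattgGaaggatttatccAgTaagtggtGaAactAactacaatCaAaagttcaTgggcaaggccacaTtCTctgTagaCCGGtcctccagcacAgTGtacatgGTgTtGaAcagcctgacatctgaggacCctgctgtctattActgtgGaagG
Ighv7-1: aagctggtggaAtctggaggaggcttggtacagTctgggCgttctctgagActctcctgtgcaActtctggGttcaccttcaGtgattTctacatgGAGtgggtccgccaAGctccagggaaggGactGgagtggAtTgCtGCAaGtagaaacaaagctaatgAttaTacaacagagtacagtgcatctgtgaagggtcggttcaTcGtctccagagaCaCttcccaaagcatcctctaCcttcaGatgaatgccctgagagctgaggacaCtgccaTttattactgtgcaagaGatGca
Ighv14-4: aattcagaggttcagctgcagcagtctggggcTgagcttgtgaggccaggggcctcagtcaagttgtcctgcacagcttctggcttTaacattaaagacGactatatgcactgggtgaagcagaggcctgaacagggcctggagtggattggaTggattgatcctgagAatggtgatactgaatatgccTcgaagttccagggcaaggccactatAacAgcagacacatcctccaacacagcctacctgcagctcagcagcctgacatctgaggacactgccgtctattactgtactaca
Ighv1-78: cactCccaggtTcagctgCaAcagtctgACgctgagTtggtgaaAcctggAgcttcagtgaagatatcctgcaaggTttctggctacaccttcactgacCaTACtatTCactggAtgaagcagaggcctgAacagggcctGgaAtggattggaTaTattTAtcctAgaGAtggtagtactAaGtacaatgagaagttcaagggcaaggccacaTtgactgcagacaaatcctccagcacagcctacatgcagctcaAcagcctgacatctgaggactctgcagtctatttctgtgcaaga
Ighv1-55: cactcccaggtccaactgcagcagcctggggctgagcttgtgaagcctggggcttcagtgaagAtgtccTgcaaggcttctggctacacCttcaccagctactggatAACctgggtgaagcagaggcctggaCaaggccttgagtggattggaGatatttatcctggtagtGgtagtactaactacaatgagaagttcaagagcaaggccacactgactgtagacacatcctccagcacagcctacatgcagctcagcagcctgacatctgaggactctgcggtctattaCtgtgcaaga
Ighv11-2: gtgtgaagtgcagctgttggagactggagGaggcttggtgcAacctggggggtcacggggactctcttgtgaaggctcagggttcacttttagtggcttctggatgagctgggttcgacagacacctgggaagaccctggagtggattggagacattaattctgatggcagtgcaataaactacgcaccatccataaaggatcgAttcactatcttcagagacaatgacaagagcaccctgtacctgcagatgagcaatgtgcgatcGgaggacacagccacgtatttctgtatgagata

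Ighv1-11 was the most distinct of the 6, with 80.3% identity to Ighv1-76 and 69 differing bases over its whole 351. Ighv1-84 was equally close at 80.3%, and the capitals of Ighv1-11 mark differences from Ighv1-76. Ighv7-1 shared 88.9% with Ighv7-3, and Ighv1-78 shared 90.3% with Ighv1-77. Ighv1-55 (96.9%, closest to Ighv1-62), Ighv14-4 (97.4%, closest to Ighv14-1) and Ighv11-2 (98.9%, closest to Ighv11-1) had near copies, with 10, 9 and 4 mismatched bases. Over the 80 members the identity to the closest relative ran from 79.4% to 99.7%, with a median of 95.5%, and 45 members had a relative of at least 95%. Levels of single segments with such relatives are uncertain, since reads may be split between copies and somatic mutation moves reads further from the germline sequence. The 4 leading segments shared 56.5% to 78.2% with one another, so they are not copies of 1 sequence.

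Every Cr1l tumour held more heavy-chain V segment RNA than any Vec tumour. The 80 segments summed to 182.08 TPM in Cr1l 1, 68.11 in Cr1l 2, 503.63 in Cr1l 3 and 184 in Cr1l 4. The sums were 12.16 TPM in Vec 5, 0 in Vec 6 and 2.32 in Vec 7. Cr1l 3 was highest, and the lowest Cr1l tumour, Cr1l 2, lay above Vec 5. The Cr1l mean was 234 ± 187 TPM (SD, n = 4) beside a Vec mean of 4.83 ± 6.46 TPM (SD, n = 3). On the log2(TPM + 1) scale the difference was 5.72, with an exact two-sided permutation p of 0.0286 over 35 splits (none smaller is possible) and an adjusted p of 0.0933 over the 7 measures tested. It did not pass the correction, but with so few splits none of the 7 measures could have passed. The failure therefore says nothing about the difference itself. The table keeps no depth, so a value of 0 says only that a segment was listed at 0, and the lowest value above 0 in a tumour ran from 0.09 TPM in Cr1l 1 to 2.32 TPM in Vec 7.

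**Figure D1:**
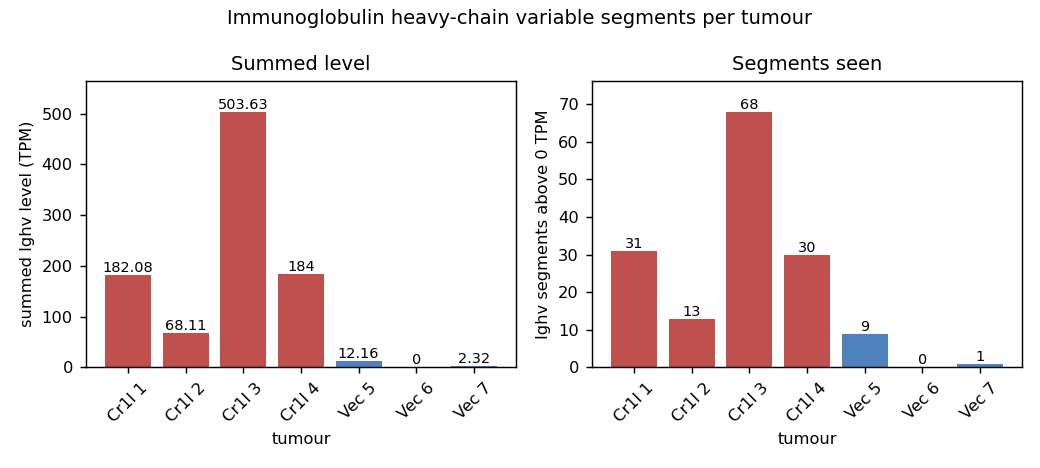
Summed Ighv level in TPM (left) and number of Ighv segments above 0 TPM (right) in each tumour, with Cr1l tumours in red and Vec tumours in blue; each bar is 1 tumour and has no error. Cr1l 3 stands highest in both panels, at 503.63 TPM and 68 segments, and Vec 6 is at 0 in both.

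The number of segments seen followed nearly the same order, with Cr1l 1 and Cr1l 4 close together. In Cr1l 1 to Cr1l 4, 31, 13, 68 and 30 segments were above 0, and in Vec 5 to Vec 7 the numbers were 9, 0 and 1. The groups did not overlap (35.5 ± 23.2, SD, n = 4, against 3.33 ± 4.93, SD, n = 3), with an exact two-sided permutation p of 0.0571 and an adjusted p of 0.0933. Of the 80 members, 78 were above 0 in at least 1 Cr1l tumour and 10 in a Vec tumour, with 8 in both. Only Ighv1-19 and Ighv5-4 were above 0 in a Vec tumour alone, at 0.69 TPM in Vec 5 and 2.32 TPM in Vec 7. A large part of the list rested on 1 tumour: 38 members were seen in a single tumour, and 29 of these in Cr1l 3.

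Dominance by single segments was moderate in the Cr1l tumours, and a different segment led in each. Ighv1-11 led in Cr1l 1 with 55.04 TPM, or 30.2% of all Ighv TPM. Ighv7-1 led in Cr1l 2 with 19.12 TPM (28.1%). Ighv14-4 led in Cr1l 3 with 91.45 TPM (18.2%), and Ighv1-78 led in Cr1l 4 with 49.67 TPM (27.0%). The leading 3 segments together held 50.6%, 64.5%, 40.2% and 47.1% of the Ighv TPM in Cr1l 1 to Cr1l 4. The highest share of any segment in a Cr1l tumour was thus the 30.2% of Ighv1-11.

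In Vec 5 the leading segment was Ighv4-1 at 3.21 TPM (26.4%), followed by Ighv3-6 at 2.38 TPM (19.6%) and Ighv1-26 at 1.18 TPM (9.70%). Vec 7 had Ighv5-4 as its single segment, and its share of 100% describes 2.32 TPM. The share of the leading segment was 25.9 ± 5.31% (SD, n = 4) in Cr1l tumours and 63.2 ± 52.0% (SD, n = 2) in the Vec tumours with any Ighv TPM. The groups overlapped, with an exact two-sided permutation p of 0.267. The difference of -37.3 percentage points was -0.53 when Vec 7 was left out, so it rests on that tumour.

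The effective number of segments, the inverse Simpson index of the TPM shares, says how many equally used segments would give the same concentration. It was 7.86, 5.63, 14.0 and 8.74 in Cr1l 1 to Cr1l 4, 6.60 in Vec 5 and 1 in Vec 7. Cr1l 3 had the most even use, and Vec 5 lay between Cr1l 2 and Cr1l 1 although its summed level was lower than that of both. The means were 9.05 ± 3.53 (SD, n = 4) and 3.80 ± 3.96 (SD, n = 2), with an exact two-sided permutation p of 0.267, and the difference of 5.25 was 2.45 without Vec 7.

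**Figure D2:**
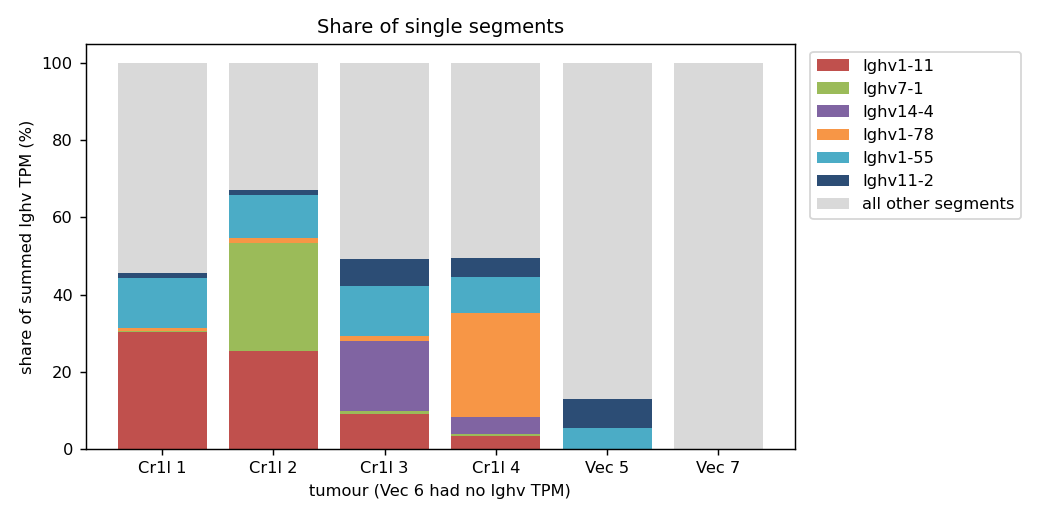
Share of each tumour's summed Ighv TPM, in percent, held by the 6 segments whose sequences are shown and by all other segments together. Ighv1-55 keeps a band of 9.24% to 13.0% in the 4 Cr1l tumours, while the largest coloured band changes from tumour to tumour.

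A small core of segments recurred. In all 4 Cr1l tumours 5 segments were above 0: Ighv1-11, Ighv1-55, Ighv1-78, Ighv7-1 and Ighv11-2. These 5 held 45.6%, 67.2%, 31.2% and 44.8% of the Ighv TPM in Cr1l 1 to Cr1l 4, 13.0% in Vec 5 and 0% in Vec 7. They were picked by their presence in the Cr1l tumours, so their lower share in the Vec tumours is no test of a difference. Another 12 segments were seen in 3 Cr1l tumours, 25 in 2 and 36 in 1.

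Ighv1-55, a member of the large Ighv1 family, was the most constant. Its levels were 23.34, 7.64, 65.48 and 17.01 TPM in Cr1l 1 to Cr1l 4, and 0.64, 0 and 0 TPM in Vec 5 to Vec 7. As a share of the Ighv TPM it held 12.8%, 11.2%, 13.0% and 9.24% in the Cr1l tumours and 5.26% in Vec 5. Every Cr1l tumour lay above every Vec tumour, and Ighv1-55 was among the leading 3 segments in each of the 4. Its log2 difference was 4.25 (SE 0.62), with an adjusted p of 0.0777 by limma over all genes tested.

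Ighv1-11, of the same family, stood at 55.04, 17.2, 45.36 and 5.97 TPM in Cr1l 1 to Cr1l 4 and was listed at 0 in all 3 Vec tumours. It was among the leading 3 segments in Cr1l 1, Cr1l 2 and Cr1l 3, and held 3.24% in Cr1l 4. Its adjusted p was 0.0779 by limma. It was 0.0365 without Cr1l 4 and 0.0222 with a pseudocount of 0.1 in place of 1, and ran up to 0.717 over all settings tried, so the call turned on these choices.

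Ighv11-2 belongs to a family that B-1 cells, a lineage of innate-like B cells, are known to use for antibodies to phosphatidylcholine. It stood at 2.58, 0.95, 35.57 and 8.96 TPM in Cr1l 1 to Cr1l 4 and at 0.94, 0 and 0 TPM in Vec 5 to Vec 7. Cr1l 2 and Vec 5 were almost level (0.95 and 0.94). The adjusted p was 0.276 by limma. Ighv12-3, known for the same specificity, reached 4.14, 0, 1.43 and 10.7 TPM from Cr1l 1 to Cr1l 4 and was listed at 0 in every Vec tumour (adjusted p = 0.314 by limma).

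The other 2 of the 5 recurrent segments were high in 1 tumour and low elsewhere. Ighv1-78 stood at 1.32, 0.88 and 6.77 TPM in Cr1l 1, Cr1l 2 and Cr1l 3 against 49.67 TPM in Cr1l 4. Ighv7-1 stood at 0.75, 3.85 and 0.87 TPM in Cr1l 1, Cr1l 3 and Cr1l 4 against 19.12 TPM in Cr1l 2. Both were listed at 0 in the 3 Vec tumours, and their adjusted p was 0.293 by limma. RefSeq names Ighv7-1 and Ighv7-3 as pseudogenes, while GENCODE M21 lists both as IG V genes; with Ighv3-2 they were the 3 members that RefSeq names as pseudogenes, and they held 28.1% of the Ighv TPM in Cr1l 2.

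Segments that led in 1 tumour could be missing in others. Ighv14-4 was listed at 0 in Cr1l 1 and Cr1l 2, at 91.45 TPM in Cr1l 3 and at 8.37 TPM in Cr1l 4, and at 0 in all Vec tumours. Its relative Ighv14-2 had another pattern, with 7.62, 0, 6.58 and 19.91 TPM in Cr1l 1 to Cr1l 4 and 0 in the Vec tumours. Ighv10-1 stood at 0, 1.05, 14.06 and 15.47 TPM and was likewise listed at 0 in the Vec tumours. These 3 segments had adjusted p of 0.439, 0.263 and 0.327 by limma.

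Of the segments seen in Vec 5, 5 were also above 0 in 3 or more Cr1l tumours. Besides Ighv1-55 and Ighv11-2 these were Ighv1-26 (5.93, 0, 5.85 and 1.99 TPM in Cr1l 1 to Cr1l 4; 1.18 in Vec 5), Ighv7-3 (13.73, 0, 7.21 and 3.56; 1.05 in Vec 5) and Ighv3-6 (1.87, 0, 11.1 and 1.11; 2.38 in Vec 5). For the last 3, Vec 5 lay inside the range of the Cr1l tumours. Ighv3-6 differed by 0.96 on the log2 scale with all tumours and by -0.21 without Vec 6 and Vec 7, a setting added after seeing the data. Ighv4-1, the leading segment of Vec 5, was above 0 in Cr1l 3 (1.65 TPM) and Cr1l 4 (1.66 TPM) as well, at lower levels than the 3.21 TPM of Vec 5.

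**Figure D3:**
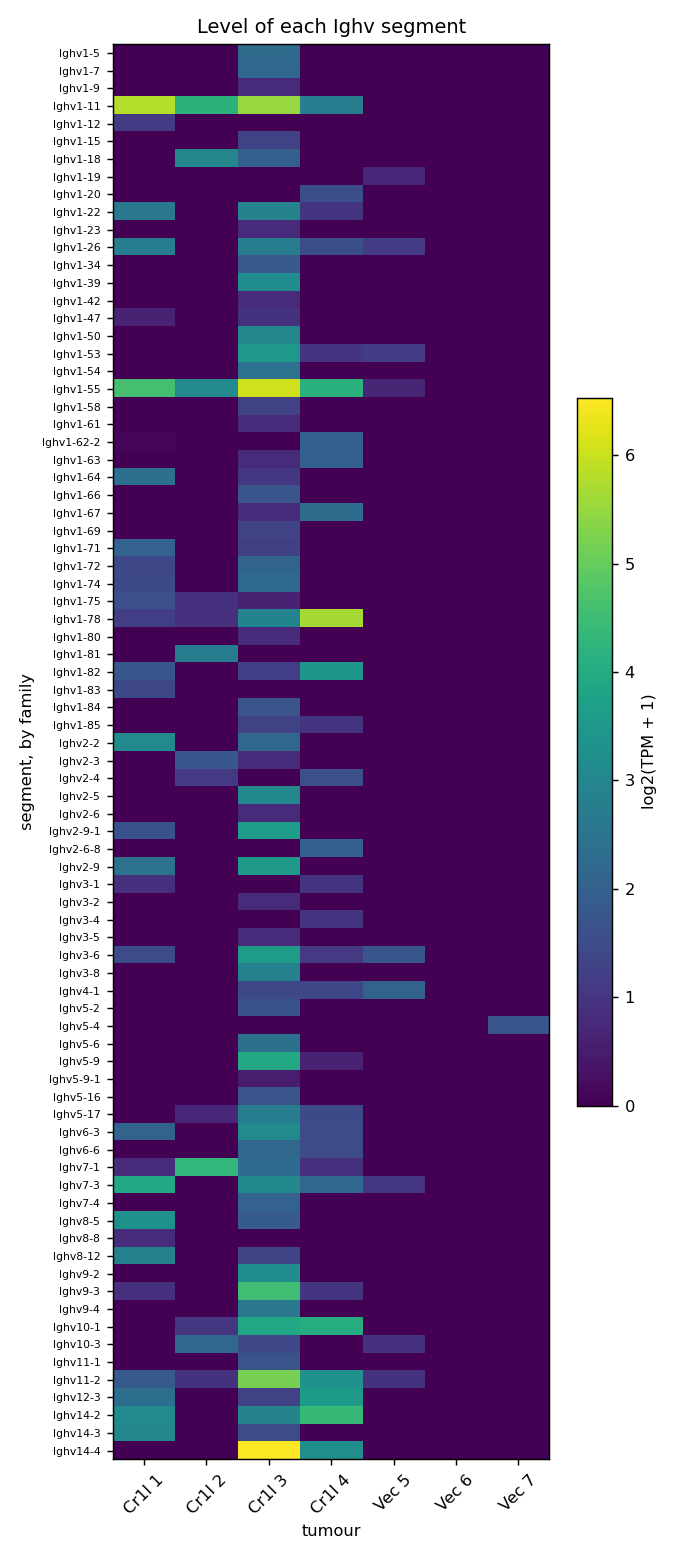
Level of each of the 80 segments (rows, ordered by family and then by place in the locus) in each tumour (columns), as log2(TPM + 1) from dark at 0 to yellow at the highest value. Ighv1-11 and Ighv1-55 form continuous rows over the 4 Cr1l tumours, the column of Cr1l 3 is the fullest with 68 segments, and the columns of Vec 6 and Vec 7 hold 0 and 1.

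Across genes, limma was fitted to log2(TPM + 1) for the 14954 genes whose mean reached 1 TPM. Of the 80 members 29 passed this filter and 51 did not. Of the 29, 23 were listed at 0 in every Vec tumour, so they passed through the Cr1l tumours alone and had to differ in that direction. After adjustment over all genes 0 of the 29 passed at 0.05 by limma, against 0.0134% of all genes tested. At an unadjusted p under 0.05, 9 were higher in Cr1l tumours, where the background was 9.49% of the genes tested, and 0 were lower (background 6.07%). With no filter, 7 of the 80 members (8.75%) were higher at an unadjusted p under 0.05 against 6.2% of 28233 genes, 0 were lower (background 4.77%), and 0 of the 28233 passed after adjustment (0%). The count over all members was therefore close to the background. The median log2 difference of all 80 members was 0.68 against 0.03 for all 28233 genes. Of the 80, 70 were listed at 0 in every Vec tumour and could only be higher in Cr1l tumours. The sign of the members' median therefore follows from these zeros and adds nothing to them. The rule that chose the members took no account of group.

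The groups did not overlap for 5 of the 80 members, the same 5 that were above 0 in all 4 Cr1l tumours, or 6.25% against 6.69% of all genes; these were 5 of the 29 tested members (17.2% against 9.29%). No member was below every Vec tumour in every Cr1l tumour (background 6.67% of the genes tested and 4.69% of all). In the authors' deposited table, made with DESeq2, all 80 members had a row and 10 had an adjusted p. Of these 10, 4 (40%) were under 0.05 with a positive fold change, where the background was 4.74%. Segments without an adjusted p had lower average counts than these 10. Several of the 10, among them Ighv1-11 and Ighv1-78, were listed at 0 in every Vec tumour and reached this level through the Cr1l tumours alone. The 40% therefore cannot be set against the background as a result. The 4 called were Ighv1-55 (log2 fold change 7.18, SE 1.44, adjusted p = 1.18e-04), Ighv1-11 (1.67e-04), Ighv11-2 (0.0193) and Ighv1-78 (0.0342). Negative calls numbered 0 among the members in the authors' deposited table, against a background of 2.27%. The deposited table does not name its numerator, and Cr1l itself had a positive value there (0.57), by which the direction was read.

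By family, Ighv1 (also called J558), the largest in the mouse, held the largest share in every Cr1l tumour and in Vec 5. It held 60.1%, 57.6%, 39.8% and 54.0% of the Ighv TPM in Cr1l 1 to Cr1l 4, 30.3% in Vec 5 and 0% in Vec 7. The 39 Ighv1 members make up 48.8% of the members, and the family has 60 of the 120 genes that RefSeq names as V segments. The mean share was 52.9 ± 9.09% (SD, n = 4) against 15.2 ± 21.5% (SD, n = 2). The groups did not overlap, with an exact two-sided permutation p of 0.0667 (no smaller p is possible with 15 splits) and an adjusted p of 0.433 over 13 families. The difference of 37.7 percentage points was 22.5 without Vec 7 and 52.9 without Vec 5.

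Several small families stood above their share of members in some tumours. Besides Ighv14 and Ighv7 these included Ighv4, Ighv8, Ighv9, Ighv10, Ighv11 and Ighv12, each with 1.25% to 3.75% of the members. Ighv14, with 3 members (3.75%), held 8.08%, 0%, 19.8% and 15.4% in Cr1l 1 to Cr1l 4. Ighv7, also with 3 members, held 7.95%, 28.1%, 2.83% and 2.41% in the Cr1l tumours and 8.63% in Vec 5. In Cr1l 3, 18.2 of the 19.8 percentage points of Ighv14 were Ighv14-4, and in Cr1l 2 Ighv7-1 was the single Ighv7 segment.

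In Vec 5 the single member of Ighv4 held 26.4% and Ighv3 held 19.6%, against at most 0.902% and 3.74% in a Cr1l tumour. Ighv10 reached 8.41% and Ighv12 5.82% in Cr1l 4, and Ighv11 reached 7.50% in Cr1l 3 and 7.73% in Vec 5. Ighv2 held 2.73% to 7.79% in the Cr1l tumours and was at 0 in Vec 5 and Vec 7 (exact permutation p = 0.0667, adjusted p = 0.433 over the families), with Ighv2-9 highest by its mean over the 7 tumours (4.53 TPM in Cr1l 1 and 10.38 TPM in Cr1l 3). Single values above these were 7.54 TPM of Ighv2-2 in Cr1l 1 and 11.47 TPM of Ighv2-9-1 in Cr1l 3. Ighv5, of which 7 members were seen, held 0% to 5.79% in the Cr1l tumours and all of the Ighv TPM of Vec 7, with Ighv5-9 at 14.42 TPM in Cr1l 3 as its highest value. Ighv8 was seen in Cr1l 1 (8.64%, led by Ighv8-5 at 8.65 TPM) and Cr1l 3 (0.848%). Ighv9 held 6.97% in Cr1l 3, led by Ighv9-3 at 21.95 TPM, and under 1% in the other Cr1l tumours. In all, 13 of the 16 families that RefSeq names were seen, and 0 of 13 passed after adjustment (smallest adjusted p = 0.433, exact permutation test), nor could any with 15 splits.

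**Figure D4:**
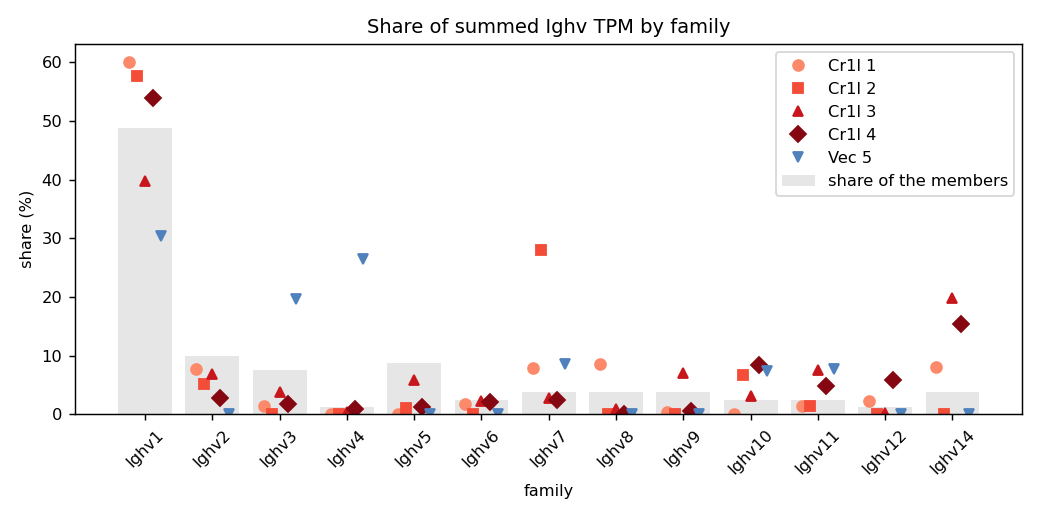
Share of the summed Ighv TPM held by each family, in percent, in the 4 Cr1l tumours (red symbols) and Vec 5 (blue), with each family's share of the 80 members as grey bars. Vec 6 (no Ighv TPM) and Vec 7 (a single Ighv5 segment) are not drawn. Ighv1 stands at 39.8% to 60.1% in the Cr1l tumours, and Ighv7 reaches 28.1% in Cr1l 2.

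Segments from both ends of the locus were in use. Ordered by RefSeq along the chromosome, 43 members lie among the 91 Ighv genes nearest to the D segments and 37 among the others. The nearer ones held 62.1%, 67.6%, 70.0% and 49.3% of the Ighv TPM in Cr1l 1 to Cr1l 4 and 69.7% in Vec 5. Cr1l 4 was lowest, with Ighv1-78 among the segments of the far part.

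The repertoire table, whose file name gives MiXCR, a tool that assembles rearranged receptor sequences from reads, holds the heavy chain (IGH) of the same tumours. A clonotype is a distinct rearranged sequence; clone numbers are printed as deposited, and how they were counted is not given. Cr1l 1 to Cr1l 4 had 484, 147, 1567 and 470 IGH clones, while Vec 5 to Vec 7 had 22, 0 and 6. Per TPM of summed Ighv this was 2.66, 2.16, 3.11 and 2.55 clones in the Cr1l tumours, 1.81 in Vec 5 and 2.59 in Vec 7. The tumours therefore stood in nearly the same order by both tables, with Cr1l 1 and Cr1l 4 almost level in each.

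Clonotypes of IGH numbered 60, 12, 162 and 44 for Cr1l 1 to Cr1l 4 and 10, 0 and 3 for Vec 5 to Vec 7, beside 31, 13, 68, 30, 9, 0 and 1 segments. In Cr1l 1, Cr1l 3 and Cr1l 4 there were thus more clonotypes than segments, while Cr1l 2 had 12 clonotypes for 13 segments. Clones per clonotype were 8.07, 12.2, 9.67 and 10.7 in Cr1l 1 to Cr1l 4 against 2.2 in Vec 5 and 2 in Vec 7. The means were 10.2 ± 1.76 (SD, n = 4) and 2.10 ± 0.141 (SD, n = 2), with groups that did not overlap, an exact two-sided permutation p of 0.0667, the smallest possible, and an adjusted p of 0.0933. Depth was not accounted for in the clone numbers, and the Vec values rest on 22 and 6 clones.

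Diversity gave the Cr1l tumours the same order in both tables (Cr1l 3, Cr1l 1, Cr1l 4, Cr1l 2), with Cr1l 1 and Cr1l 4 almost level for segments. The exponential of the entropy, an effective number that gives less weight to the leader than the inverse Simpson index, was 14.50, 7.49, 27.1 and 14.49 for segments in Cr1l 1 to Cr1l 4. For IGH clonotypes it was 20.0, 5.07, 49.0 and 15.0. Cr1l 3 was the most diverse and Cr1l 2 the least diverse Cr1l tumour by both. In Vec 5 the values were 7.71 for segments and 8.13 for clonotypes, above the 5.07 clonotypes of Cr1l 2.

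**Figure D5:**
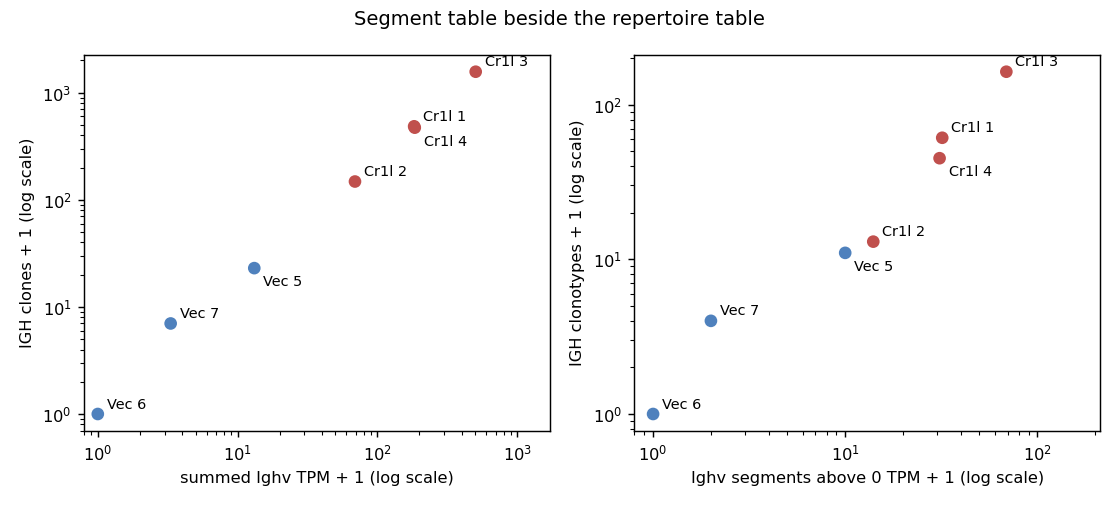
Left, IGH clones against summed Ighv TPM; right, IGH clonotypes against Ighv segments above 0 TPM; all axes are logarithmic with 1 added, and each point is a tumour (Cr1l red, Vec blue). The 4 Cr1l tumours lie above the 3 Vec tumours on both axes of both panels, with Cr1l 3 at 1567 clones and 162 clonotypes and Vec 6 at 0.

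The constant regions of the same locus gave the classes in which these segments were used. Ighm, the IgM constant region, stood at 158.56, 65.6, 484.26 and 182.05 TPM in Cr1l 1 to Cr1l 4 and 13.6, 4.38 and 5.49 TPM in Vec 5 to Vec 7. It made up 89.2%, 98.3%, 76.1% and 72.7% of the TPM of 8 heavy-chain constant regions in the Cr1l tumours. In Vec 5 to Vec 7 it made up 62.9%, 72.9% and 76.9%, so the groups overlapped. The IgG3 region Ighg3 reached 59.29 TPM in Cr1l 4, where Ighv1-78 led, and the IgA region Igha reached 88.53 TPM in Cr1l 3, where Ighv14-4 led; which segment was joined to which constant region is not given by either table. In the repertoire table the IgM share of IGH clones was 93.4%, 100%, 80.0% and 56.0% in Cr1l 1 to Cr1l 4. It was 40.9% in Vec 5 (22 clones) and 83.3% in Vec 7 (6 clones), again with overlap.

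Set against the constant regions, V segment RNA was lower in Vec 5 and Vec 7 than in each Cr1l tumour. The ratio of the summed Ighv TPM to the summed constant region TPM was 1.02, 1.02, 0.791 and 0.735 in Cr1l 1 to Cr1l 4, 0.562 in Vec 5 and 0.325 in Vec 7. Vec 6 had 6.01 TPM of constant regions and no V segment. The log2 ratio differed by 1.05 between the groups (exact two-sided permutation p = 0.0667, the smallest possible for the 6 tumours with both sums above 0; adjusted p = 0.0933). In the same 6 tumours the ratio to the light-chain variable segments (70 Igkv and Iglv symbols) was steadier. It was 0.559, 0.571, 0.587 and 0.612 in Cr1l 1 to Cr1l 4, 0.599 in Vec 5 and 0.739 in Vec 7. In Vec 6, with 3.74 TPM of light-chain segments, this ratio was 0.

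Genes of heavy-chain assembly and expression were read from a list by role. Of the 8 constant regions 6 were tested by limma, and 6 were positive with 0 past the adjusted threshold. Recombination genes were almost absent: Rag1 and Rag2, which cut the V, D and J segments, had no row, and Dntt, which adds bases at the joints, reached at most 0.27 TPM. Of the surrogate light chain of precursor B cells, Vpreb1 had no row, and Igll1 was above 0 in Cr1l 2 alone (0.43 TPM). Vpreb3, the other gene of that list, ran the other way, at 0, 0.25, 0.62 and 0.16 TPM in Cr1l 1 to Cr1l 4 and 1.46, 1.43 and 2.48 TPM in Vec 5 to Vec 7, with no overlap; it was below the filter and not tested.

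Receptor partners and B lineage genes ranged widely in level. Cd79a, a signalling chain of the B cell receptor, stood at 1.11, 0.64, 1.37 and 0.91 TPM in Cr1l 1 to Cr1l 4 and 0.2, 0.16 and 0.92 TPM in Vec 5 to Vec 7, with groups that overlapped. Jchain, the joining chain of polymeric IgM and IgA, stood at 16.08, 7.74, 66.53 and 16.46 TPM against 0.79, 0.27 and 0.06 TPM, with no overlap and an adjusted p of 0.10 by limma. Pou2af1, a coactivator of immunoglobulin promoters, stood at 0.91, 0.8, 3.12 and 0.79 TPM against 0, 0 and 0.06 TPM. Xbp1, a regulator of secretory cells that is also used outside the B lineage, stood at 81.8 to 173.8 TPM over the 7 tumours. Of 7 B lineage regulators 5 were tested, with 5 positive and 0 past the adjusted threshold by limma.

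Marker lists of other cells moved between tumours as well. The 8 B cell markers, all in the table, summed to 5.28 to 22.6 TPM in the Cr1l tumours and 1.91 to 4.07 TPM in the Vec tumours. Ms4a1 (CD20) was low throughout, at 0.57, 0.06, 0.79 and 0.31 TPM in Cr1l 1 to Cr1l 4 and 0 in all 3 Vec tumours. Among the markers whose groups overlapped were Cd79b (1.28 to 5.65 TPM in Cr1l tumours, 0.73 to 2.01 TPM in Vec tumours) and Fcrla (0.16 to 3.16 TPM and 0 to 0.66 TPM). The 7 plasma cell markers summed to 159 to 304 TPM against 118 to 170 TPM, mostly through Xbp1 and Sdc1, the latter at no less than 25.9 TPM in any tumour. The 7 markers of lymph node stroma and vessels overlapped, at 4 to 35.4 TPM in Cr1l tumours and 12.7 to 29.4 TPM in Vec tumours, with Chst4 and Madcam1 at 0 in the Vec tumours and at most 0.34 and 0.43 TPM in a Cr1l tumour. Ccl21a, a chemokine of lymphatic vessels and lymph node stroma, stood at 0, 0, 0.09 and 1.27 TPM in Cr1l 1 to Cr1l 4 and 10.8, 28.13 and 3.12 TPM in Vec 5 to Vec 7. Its groups did not overlap, with a log2 difference of -3.16 (SE 0.64) and an adjusted p of 0.13 by limma. Cxcl13 of the same list had the opposite sign, with groups that overlapped. It stood at 3, 5.31, 14.73 and 33.08 TPM in Cr1l 1 to Cr1l 4 and 5.32, 0.98 and 5.2 TPM in Vec 5 to Vec 7. Its log2 difference was 1.34 (SE 0.77), with an adjusted p of 0.41 by limma.

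The 5 macrophage markers summed to 194, 284, 1854 and 1552 TPM in Cr1l 1 to Cr1l 4 and 173 to 514 TPM in the Vec tumours, and the 5 melanocytic markers were lowest in Cr1l 3 and Cr1l 4 (8576 and 9849 TPM, against 12444 to 19341 TPM elsewhere). The 5 T cell markers summed to 7.3 to 103 TPM in Cr1l tumours and 8.63 to 20.8 TPM in Vec tumours. The macrophage and T cell sums of Cr1l 1 and Cr1l 2 lay below the top of the Vec range. Red cell markers summed to 41285 TPM in Vec 6 and 9694 TPM in Vec 7 against 106 to 416 TPM elsewhere, and these were the 2 tumours with the least Ighv RNA. The part of these differences in the Ighv result was not tested. With Vec 5 as the 1 vector tumour, a setting added after seeing the data, the log2 difference of the Ighv sum was 3.82 (exact permutation p = 0.20, the smallest possible with 5 splits).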

How the data were processed

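RNA of 7 tumours (4 Cr1l, 3 Vec, groups and tumour numbers from the labels) was selected with poly-T beads and sequenced without strand, per the labels' protocols. Per the submitters' processing notes, the authors used RSEM, DESeq2 and the mm39 build; versions, annotation and depth are not given. The authors deposited log2(TPM + 1) values per gene symbol, which were turned back to TPM (2 decimals; sums of 993520 to 996031 per tumour; 13634 to 15352 genes at 1 TPM or more). TPM keeps no depth, so no counting error is given. Replicates are separate tumours by their labels. The authors' deposited DESeq2 table has, per the file headers, an average of normalized counts (signal), a log2 fold change with its SE, a Wald statistic (a score), and a p-value with its adjusted value per Ensembl identifier; symbols came from a GRCm38 name table, used for names alone. The repertoire table was used as deposited. Its clonality equalled 1 minus entropy over log2 of the clonotypes in 6 of 6 tumours with IGH clones.

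Tests ran in limma 3.58.1 (R 4.3.3) on log2(TPM + 1) with a trend, for genes averaging 1 TPM or more, with Benjamini-Hochberg adjustment over all genes and a threshold of 0.05. This step was tested on simulated data. Per-tumour measures had exact two-sided permutation tests of the difference of means, adjusted over 7 measures (families over 13). Differences are Cr1l minus Vec. Shares used tumours with an Ighv sum above 0. Germline coding sequences (GENCODE M21, untranslated bases removed) were aligned globally with Biopython 1.88, with at least 200 aligned bases. Coordinates are not printed because the reference build differs from mm39. Named segments were the 3 highest per tumour, the 10 with the smallest p, those of Vec also in 3 Cr1l tumours and the highest of each family. Other Ighv symbols named, and Pou2af1, Cxcl13 and Fcrla, were chosen after their values were seen. The members and lists were chosen with earlier results of these data known. Figures used matplotlib 3.10.9.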

Additional observations from a re-analysis of the deposited data

Results flagged for a closer look

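Among the 4 Cr1l tumours, 1 tumour stood apart from the other 3 by Dixon's gap test in 8 of 45 measures checked; chance gives about 1 in 20 per measure, and the measures share tumours. Cr1l 3 was the tumour apart for Ighv14-4 (91.45 TPM), Ighv9-3 (21.95 TPM), Ighv5-9 (14.42 TPM), Ighv3-6 (11.1 TPM) and the share of the Ighv9 family (6.97%). Cr1l 4 stood apart for Ighv1-78 (49.67 TPM), Cr1l 2 for Ighv7-1 (19.12 TPM) and Cr1l 1 for the share of the Ighv8 family (8.64%). In each case the tumour apart was the highest, which for the segments was favoured by naming them for high levels.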

How the results depend on the processing

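No paired analysis was possible because the tumour numbers, 1 to 4 and 5 to 7, are not shared by the groups. The number of Ighv segments past the threshold was 0 of 29 by limma and 1 (Ighv1-11) with a pseudocount of 0.1; without 1 tumour it was 0 to 1, with the 1 call without Cr1l 4. Leaving out 1 tumour at a time gave differences of 4.81 to 6.67 for the summed level (log2), 21.3 to 39.7 segments, -74.1 to -0.53 percentage points for the leading share, 2.45 to 8.05 effective segments, 22.5 to 52.9 percentage points for the Ighv1 share, 0.65 to 1.44 for the log2 ratio to constant regions and 7.37 to 8.77 clones per clonotype. With fewer tumours the exact test could not reach its former p, so these settings say little about stability. Among the segments named by rule and recomputed under each setting, Ighv3-6 changed direction (-0.21 on the log2 scale without Vec 6 and Vec 7, added after seeing the data); in that setting 34 of all 38 tested segments were positive, against 29 of 29 with all tumours. Median-of-ratios scaling moved the median of all genes by -0.06 on the log2 scale. Of the 83 other values of these comparisons that were recomputed, 81 kept their direction and side of the threshold. For the 7 exact-test measures the side could not change, since no adjusted p under 0.05 was possible in any setting. Their part of this count therefore says nothing about stability at the threshold. Without read numbers, segments at 0 cannot be told from segments below detection.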
